A study of Mus musculus with 6 samples.

Results

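The expression of 10 genes of adipocyte differentiation was examined in fibroblasts undergoing reprogramming with or without activated AKT. The genes were *Pparg*, *Cebpa*, *Cebpb*, *Cebpd*, *Fabp4*, *Adipoq*, *Plin1*, *Cd36*, *Lpl* and *Cfd*, chosen by symbol for their known place in fat cell formation, and all 10 were found among the 54331 genes of the RNA-seq table. The comparison addresses whether AKT activation drew the cells toward an adipocyte fate. All samples were mouse embryonic fibroblasts (MEFs) from male E13.5 embryos of a mixed C57BL/6, DBA/2 and ICR background that carry an Oct4-EGFP transgene. All had received retroviral Oct4, Sox2 and Klf4 (OSK) together with AKT-MER, in which membrane-bound AKT is joined to an estrogen receptor domain that responds to a drug. In the OSKA + 4OHT group (3 wells) AKT-MER was activated with 4-hydroxytamoxifen (4OHT), the OSKA − 4OHT group (3 wells) received vehicle in a mock administration, and RNA was taken from all cells of each well at 10 days postinfection (dpi). The MEFs were pooled from several embryos, and the wells were split from infected cells of this pool, so the p-values measure the spread between wells and not between animals. A well holds reprogrammed and unreprogrammed cells, and in such bulk RNA fewer cells of a type and less RNA per cell cannot be told apart. The effect of 4OHT on cells without AKT-MER was not analysed here.

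Adipocytes arise from fibroblast-like progenitors through a cascade of transcription factors. C/EBPβ and C/EBPδ, encoded by *Cebpb* and *Cebpd*, act early and induce PPARγ (*Pparg*) and C/EBPα (*Cebpa*), which maintain each other and switch on the genes of the fat cell. Insulin signals through AKT, which phosphorylates FOXO1 and relieves its restraint on this program, and embryonic fibroblasts can form adipocytes in culture when given hormonal inducers.

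No member passed the test, and 3 genes of the mature adipocyte were not detected in either group. *Adipoq*, *Plin1* and *Cfd* were listed at 0 TPM in all 6 libraries, and *Cebpa* did not exceed 1.06 TPM. *Lpl* was higher in every OSKA + 4OHT well than in any OSKA − 4OHT well, *Cd36* and *Cebpd* were lower in every OSKA + 4OHT well, and *Pparg*, *Cebpb*, *Cebpa* and *Fabp4* overlapped between the groups. Of the 10 members, 6 had a mean of at least 1 TPM (transcripts per 1000000, a level adjusted for transcript length) and entered a limma-trend fit of log2(TPM + 0.5) across all 15382 such genes, and *Cebpa*, *Adipoq*, *Plin1* and *Cfd* were not. With Benjamini-Hochberg adjustment 0 of the 6 were called at an adjusted p-value under 0.05, against 5.49% of all tested genes (3.52% higher and 1.97% lower, and 4.23% when a log2 fold change beyond 1 either way is also asked), and 3 had an unadjusted p under 0.05, against 21.3%. The groups did not overlap in 1 member that was higher and 2 that were lower, against 18.1% and 10.0% of all tested genes, or 28.2% in either direction. The median log2 fold change of the 6 members was -0.089, beside 0.14 over all tested genes. For 1 gene taken alone, the exact permutation test of 3 wells against 3 has a smallest 2-sided p of 0.1, and *Lpl*, *Cd36* and *Cebpd* reached it. Below, the 3 values of a group follow the replicate numbers, errors are SD over 3 wells, and adjusted p-values are those of limma-trend.

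**Figure D1:**
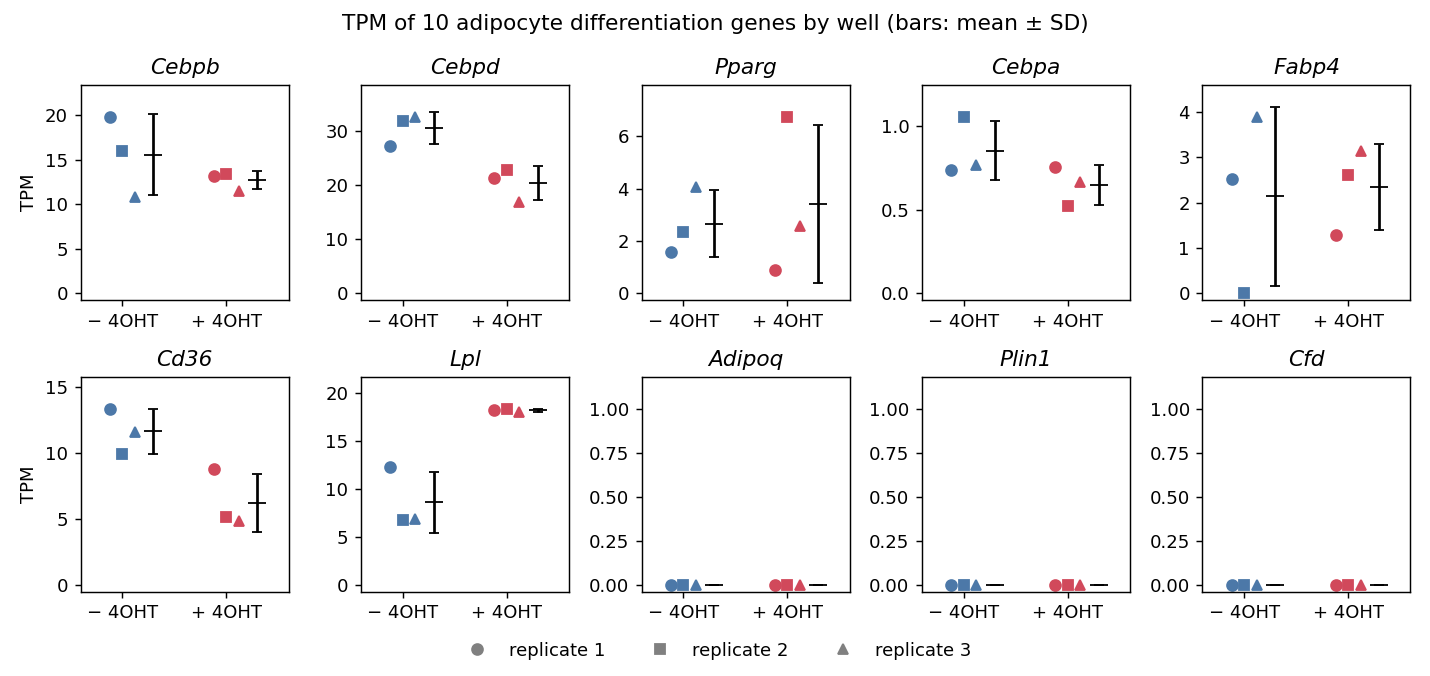
TPM of each of the 10 members (vertical axes, linear and scaled for each gene) in the OSKA − 4OHT (blue) and OSKA + 4OHT (red) groups, with a symbol for each replicate number and the mean ± SD of 3 wells in black. The groups are apart for *Lpl*, *Cd36* and *Cebpd*, overlap for *Cebpb*, *Pparg*, *Cebpa* and *Fabp4*, and lie at 0 for *Adipoq*, *Plin1* and *Cfd*.

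The libraries were shallow, which sets what these values can show. The deposited TPM values add up to 1000000 in each well and keep no depth, but the product of TPM and transcript length rises in approximate steps of 1 read, from which relative depths of 0.507 to 1 were read for the OSKA − 4OHT libraries and 0.798 to 0.927 for the OSKA + 4OHT libraries. These steps were not sharp, since 37.5% to 41.8% of low values lay within 0.15 of a whole number of reads where an even spread would give 30%. With the principal transcript of each gene, *Cebpd* rested on about 77.9 to 184.5 reads per library, *Lpl* on 24.2 to 109.5, *Cd36* on 20.1 to 51.9 and *Cebpb* on 12.4 to 33.3. *Pparg* rested on about 1.93 to 15.8 reads, *Cebpa* on 1.47 to 4.17 and *Fabp4* on 0 to 2.68. Few reads could have come from another gene, as 98.9% of the 50-base stretches of *Lpl* transcripts, 99.8% of those of *Plin1* and 100% of those of the other members occur in no other annotated gene. Of the MEF markers, *Vim* was the most abundant, between 3374 and 4553 TPM without 4OHT and between 2075 and 3065 TPM with it. Of all 9 markers 3 fell, *S100a4* the most (52.6% of its 50-base stretches are unique), and *Col3a1* rose with 4OHT. The groups did not overlap in 7 MEF markers that were lower and 2 that were higher, against 10.0% and 18.1% of all tested genes. Of the 8 tested pluripotency markers 5 rose, with *Epcam* the most abundant (between 14.6 and 23.9 TPM without 4OHT and between 41.0 and 50.1 TPM with it). *Dppa5a*, the pluripotency marker with the largest rise, was listed at 0 without 4OHT and had 16.4, 25.7 and 18.5 TPM with it (adjusted p = 0.00328 by limma), and 61.4% of its 50-base stretches are unique. On omitting single wells, *Dppa5a* kept its call each time (adjusted p 0.0167 to 0.0331 by limma), *Epcam* lost its call each time (adjusted p 0.0564 to 0.152 by limma), and *S100a4* lost it only without OSKA − 4OHT replicate 2 (0.0512).

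Of the early factors, *Cebpd* was the most abundant member in both groups. *Cebpd* lies on chromosome 16 of GRCm38 from 15887286 to 15891031. *Cebpd* had 27.2, 31.8 and 32.7 TPM without 4OHT and 21.4, 22.9 and 16.8 TPM with it. All OSKA + 4OHT wells were below all OSKA − 4OHT wells. The means were 30.6 ± 2.93 and 20.4 ± 3.13 TPM (n = 3). This is -0.58 on the log2 scale (SE 0.186, 95% interval -1.03 to -0.13), with an adjusted p of 0.139 by limma (0.0187 unadjusted). When libraries were rescaled by a trimmed mean, which put the median of all genes near 0, the log2 fold change was -0.73 and the adjusted p 0.0491. The same scaling did not bring another member under 0.05.

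*Cebpb*, a gene with a single exon on chromosome 2 (167688915 to 167690418), had 19.8, 16.0 and 10.8 TPM without 4OHT and 13.1, 13.4 and 11.5 TPM with it. The OSKA + 4OHT values lay within the range of the OSKA − 4OHT values. The log2 fold change was -0.24 (SE 0.258, 95% interval -0.87 to 0.38, adjusted p = 0.624 by limma). *Cebpg*, a C/EBP family member that lacks an activation domain of its own, had 20.6, 16.9 and 13.7 TPM without 4OHT and 9.94, 17.9 and 11.4 TPM with it, and *Cebpe*, a C/EBP gene of granulocytes, was listed at 0 in all libraries.

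The regulators that commit a cell to the adipocyte fate stood far lower. *Pparg*, which encodes the nuclear receptor that is required for fat cell formation, lies on chromosome 6 (115360951 to 115490399) and has 7 annotated transcripts. It had 1.57, 2.33 and 4.07 TPM without 4OHT and 0.891, 6.75 and 2.55 TPM with it. Both the lowest and the highest value belonged to the OSKA + 4OHT group. The log2 fold change was 0.066 (SE 0.675, 95% interval -1.56 to 1.69, adjusted p = 0.971 by limma). Its sign turned without OSKA + 4OHT replicate 2 (-0.54) or OSKA − 4OHT replicate 1 (-0.20) and under trimmed mean (-0.054) and quantile (-0.30) scaling, and it was 0.65 without OSKA + 4OHT replicate 1. The relatives of *Pparg* differed in level, since *Ppard*, a broadly expressed PPAR gene, had between 10.5 and 17.0 TPM in the 6 libraries and *Ppara*, the PPAR gene of fatty acid oxidation in liver, was listed at 0 in all of them.

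*Cebpa*, the partner of *Pparg* in maintaining the fat cell, lies on chromosome 7 (35119293 to 35121928). It had 0.735, 1.06 and 0.769 TPM without 4OHT and 0.757, 0.522 and 0.667 TPM with it. The groups overlapped. In a fit without a filter on low values its log2 fold change was -0.23 (95% interval -1.18 to 0.72, adjusted p = 0.768 by limma).

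One gene value pools all starts of *Pparg*, and the adipocyte-selective isoform of PPARγ starts at a downstream promoter. To show what these starts look like, 2 of its 3 promoter windows are printed with those of *Plin1*, a member listed at 0, and *Cd36*, a member whose groups were apart, all of which hold a match to a motif below. Each window runs from 250 bases before to 50 bases after an annotated start (RefSeq, GRCm38.p6, 5′ to 3′ on the strand of the gene). The windows are chr6:115360894-115361193 (+), chr6:115421816-115422115 (+), chr7:79732727-79733026 (−) and chr5:17835847-17836146 (−). Capitals mark matches to the C/EBP core TTGCNNAA and to the nuclear receptor half-site AGGTCA, each searched on both strands.
*Pparg*, upstream start: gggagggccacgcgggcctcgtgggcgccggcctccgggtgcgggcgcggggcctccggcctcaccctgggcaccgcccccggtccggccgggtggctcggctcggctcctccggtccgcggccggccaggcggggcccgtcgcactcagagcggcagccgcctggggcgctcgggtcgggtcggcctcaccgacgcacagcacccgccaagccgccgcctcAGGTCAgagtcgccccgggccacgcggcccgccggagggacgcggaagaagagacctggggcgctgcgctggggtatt
*Pparg*, downstream start: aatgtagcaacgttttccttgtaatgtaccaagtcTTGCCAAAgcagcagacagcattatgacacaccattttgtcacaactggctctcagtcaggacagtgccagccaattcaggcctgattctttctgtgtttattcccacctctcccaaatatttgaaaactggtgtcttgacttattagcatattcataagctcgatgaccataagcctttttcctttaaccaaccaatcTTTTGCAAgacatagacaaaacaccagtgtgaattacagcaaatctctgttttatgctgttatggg
*Plin1*: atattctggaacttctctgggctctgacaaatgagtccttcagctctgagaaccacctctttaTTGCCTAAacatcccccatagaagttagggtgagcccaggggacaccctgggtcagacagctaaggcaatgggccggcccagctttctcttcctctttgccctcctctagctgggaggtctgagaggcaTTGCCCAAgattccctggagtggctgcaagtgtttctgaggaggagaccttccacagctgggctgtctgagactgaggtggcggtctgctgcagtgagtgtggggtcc
*Cd36*: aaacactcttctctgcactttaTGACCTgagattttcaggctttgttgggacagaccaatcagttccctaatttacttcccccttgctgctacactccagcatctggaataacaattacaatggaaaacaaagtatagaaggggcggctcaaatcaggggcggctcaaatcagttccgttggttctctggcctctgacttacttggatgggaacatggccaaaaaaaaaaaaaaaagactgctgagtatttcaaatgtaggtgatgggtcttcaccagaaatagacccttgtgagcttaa
The C/EBP core was found at 2 positions in the downstream *Pparg* window and at 2 in the *Plin1* window, and it occurs in 10.8% of all 32851 windows. The half-site was found in the upstream *Pparg* window, in the *Pparg* window not printed and in the *Cd36* window, against 16.3% of all windows, and a FOXO motif, GTAAACA, which 3.6% of all windows hold, was in none of the 9 windows of the 7 members with an entry. The windows of *Adipoq* and *Cfd*, also listed at 0, and of *Cebpa* and *Cebpb* hold neither a C/EBP core nor a half-site. A match is a string of letters and not a measured site, and the absence of one covers these windows only.

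The effector genes fell into those listed at 0, 1 at the limit of detection, and a pair, neither called, whose groups lay apart in opposite directions. *Adipoq* on chromosome 16 (23146536 to 23158028) encodes the fat cell hormone adiponectin, *Plin1* on chromosome 7 (79720218 to 79732903) the perilipin that coats the lipid droplet of adipocytes, and *Cfd* on chromosome 10 (79890853 to 79892655) the serine protease adipsin. Each was listed at 0 in all 6 libraries. A value of 0 allows up to 3 reads, counting error only, which corresponds to between 1.74 and 3.42 TPM for *Adipoq*, 0.705 and 1.39 TPM for *Plin1* and 2.69 and 5.31 TPM for *Cfd*, depending on the library. A 0 therefore does not show that a gene was silent below these levels.

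*Fabp4* on chromosome 3 (10204088 to 10208576), a fatty acid carrier that is a classical target of PPARγ, had 2.51, 0 and 3.90 TPM without 4OHT and 1.29, 2.61 and 3.13 TPM with it. The groups overlapped, and every value was at or under 3 reads. Its log2 fold change of 0.54 (95% interval -1.59 to 2.66, adjusted p = 0.767 by limma) turned to -0.42 without OSKA − 4OHT replicate 2, where it was listed at 0. Other carriers of the family were far more abundant, with *Fabp5*, the epidermal form, between 103.4 and 150.7 TPM and *Fabp7*, the brain form, between 101.0 and 143.6 TPM. *Fabp2*, the intestinal form, was listed at 0, 0.869 and 0 TPM without 4OHT and had 5.06, 4.10 and 7.69 TPM with it. It rose (adjusted p = 0.0367 by limma), but on omitting single wells the adjusted p ran from 0.0381 to 0.110, and the call held only when OSKA − 4OHT replicate 2 was the one omitted. A 0 allows up to 4.99 and 4.59 TPM of *Fabp2* in OSKA − 4OHT replicates 1 and 3, within its range with 4OHT.

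*Lpl*, which encodes the lipoprotein lipase that releases fatty acids from circulating triglyceride, lies on chromosome 8 (68880491 to 68907448). It had 12.3, 6.75 and 6.84 TPM without 4OHT and 18.2, 18.4 and 18.1 TPM with it. The groups did not overlap, and OSKA − 4OHT replicate 1 stood nearest to the OSKA + 4OHT wells. The means were 8.62 ± 3.17 and 18.2 ± 0.175 TPM (n = 3), a ratio of 2.12. The log2 fold change of 1.09 (SE 0.27, 95% interval 0.44 to 1.74) was the largest rise among the 6 tested members, with an adjusted p of 0.0728 by limma (0.00584 unadjusted). Without OSKA − 4OHT replicate 1 the log2 fold change was 1.36 and the adjusted p 0.0417, whereas omitting any of the other 5 wells gave 0.171 to 0.220.

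The proteins that act on lipoprotein lipase were also examined, and of the 7 genes 4 were tested and 0 called (1 with an unadjusted p under 0.05). *Gpihbp1*, whose product carries the enzyme to the capillary wall, and *Angptl8*, which encodes an inhibitor of the enzyme made in fat and liver, were listed at 0 in all libraries. *Lmf1*, needed for the enzyme to fold, had 28.0, 7.37 and 8.16 TPM without 4OHT and 13.0, 14.6 and 12.1 TPM with it. *Sel1l*, a partner in the folding of the enzyme and the one with an unadjusted p under 0.05, had 65.0, 49.3 and 46.1 TPM without 4OHT and 38.4, 40.4 and 32.8 TPM with it (log2 fold change -0.51, adjusted p = 0.187 by limma). *Angptl4*, which encodes an inhibitor of the enzyme, had 1.10, 0.482 and 0 TPM without 4OHT and 0.829, 4.91 and 4.00 TPM with it, and its groups overlapped (log2 fold change 1.79, adjusted p = 0.254 by limma). *Vldlr*, a lipoprotein receptor gene, was higher in every OSKA + 4OHT well (log2 fold change 0.46, adjusted p = 0.293 by limma), and *Apoc2*, which encodes the cofactor of the enzyme, did not exceed 2.66 TPM, with 21.7% of its 50-base stretches unique. As for *Lpl*, OSKA − 4OHT replicate 1 had the highest *Lmf1* value of its group. *Lipg*, which encodes the related endothelial lipase, had 8.46, 9.40 and 10.0 TPM without 4OHT and 1.35, 3.28 and 2.64 TPM with it. It fell by 1.80 on the log2 scale (adjusted p = 0.0355 by limma), opposite to the direction of *Lpl*, and its adjusted p-value was from 0.0793 to 0.121 when any 1 of the 6 wells was left out.

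*Cd36*, which encodes a receptor that takes up fatty acids and oxidized lipoprotein, lies on chromosome 5 (17781690 to 17888801). It had 13.4, 9.94 and 11.7 TPM without 4OHT and 8.79, 5.13 and 4.82 TPM with it. Every OSKA + 4OHT well was below every OSKA − 4OHT well, with OSKA + 4OHT replicate 1 the nearest to them. The means were 11.7 ± 1.73 and 6.25 ± 2.21 TPM (n = 3). The log2 fold change was -0.89 (SE 0.289, 95% interval -1.58 to -0.19), with an adjusted p of 0.145 by limma (0.0200 unadjusted). The related scavenger receptor genes *Scarb1* and *Scarb2* had between 11.7 and 35.4 TPM and between 71.2 and 86.3 TPM in the 6 libraries, with overlapping groups.

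*Cd36* is also a gene of macrophages and endothelium, and *Lpl* is also a gene of macrophages. Of the 10 macrophage markers, all were tested and 1 fell, *Lyz2* (lysozyme), which had 101.2, 90.1 and 94.3 TPM without 4OHT and 48.2, 46.5 and 60.7 TPM with it. Of its 50-base stretches 84.6% are unique. Its adjusted p-value was 0.0299 by limma, and on omitting single wells the call held only when OSKA + 4OHT replicate 3 was the one omitted (range 0.0279 to 0.0987). The summed level of the list was 144.1 to 167.6 TPM without 4OHT and 104.8 to 114.2 TPM with it, and all 10 markers were above 0 in all libraries. *Ptprc* was between 0.435 and 1.67 TPM and *Csf1r* between 0.935 and 4.29 TPM, whereas *C1qa* was between 10.3 and 16.7 TPM, *C1qb* between 6.53 and 17.2 TPM and *Cd68* between 11.8 and 22.1 TPM. *Lyz2* carried the difference between the summed levels. An alternative chosen after seeing the data left *Lyz2* out, and the other 9 markers then summed to 54.0 to 73.2 TPM without 4OHT and 52.9 to 65.9 TPM with it, which overlap. Of these 9, named after their values were seen, the groups were apart in *Csf1r*, lower in every OSKA + 4OHT well (3.06, 2.88 and 4.29 TPM without 4OHT and 2.21, 0.935 and 2.71 TPM with it, adjusted p = 0.392 by limma), and in *Fcgr1*, higher in every one (0.390, 0.179 and 0.630 TPM without 4OHT and 0.641, 3.44 and 4.12 TPM with it, adjusted p = 0.256 by limma). The groups overlapped in the other 7. The part of the *Lyz2* difference in the *Cd36* and *Lpl* values was not tested. Of the 8 endothelial markers 2 were tested and 0 called (1 with an unadjusted p under 0.05). The sum of the 8 was 21.8 to 29.9 against 28.6 to 39.9 TPM, and *Tek* was the most abundant (12.8 to 15.7 against 21.2 to 23.2 TPM). *Pecam1* and *Cdh5* are named after their values were seen. *Pecam1* had 8.32 to 11.4 against 5.81 to 14.1 TPM, and *Cdh5* did not exceed 0.8055 TPM. The endothelial sums overlapped between the groups, as did those without *Tek* (9.07 to 14.2 against 7.42 to 16.7 TPM, also chosen after seeing the data).

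**Figure D2:**
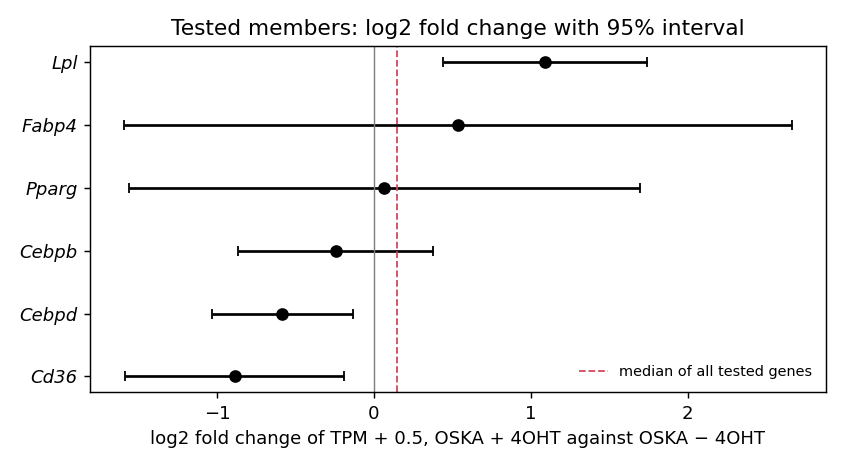
Log2 fold change of TPM + 0.5 with against without 4OHT (horizontal axis) with its 95% interval from limma-trend for the 6 tested members. The intervals of *Lpl* (0.44 to 1.74), *Cebpd* (-1.03 to -0.13) and *Cd36* (-1.58 to -0.19) lie on 1 side of 0, those of *Fabp4* and *Pparg* are the widest, and the dashed line marks the median of all tested genes (0.14).

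Set in order of their mean TPM in the OSKA − 4OHT group, the detected members ran from *Cebpd* through *Cebpb*, *Cd36*, *Lpl*, *Pparg* and *Fabp4* to *Cebpa*. The ranges of *Cebpb* and *Cd36*, of *Cd36* and *Lpl*, of *Pparg* and *Fabp4*, and of *Fabp4* and *Cebpa* overlapped. In contrast, every *Cebpd* value was above every *Cebpb* value and every *Lpl* value above every *Pparg* value. In the OSKA + 4OHT group *Lpl* moved to the second place, within the range of *Cebpd* and above *Cebpb* in every well. Among all tested genes, the mean of *Cebpd* over the 6 libraries was above 66.7% of genes, those of *Cebpb* and *Lpl* above 51.4% and 50.1%, that of *Cd36* above 40.1%, and those of *Pparg* and *Fabp4* above 19.4% and 14.6%.

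Further genes of the adipocyte program were read from lists, and few of them passed the test. Of 15 factors that favor adipocyte differentiation 13 were tested and 0 called, with a median log2 fold change of 0.17 and 3 with an unadjusted p under 0.05. Of 19 restraining factors 17 were tested and 0 called, with a median of -0.021 and 4 with an unadjusted p under 0.05. The genes of both lists that follow are all the tested ones whose groups did not overlap, a choice made after their values were seen, and none passed the threshold. Of the favoring factors, *Zfp467*, *Srebf1* (the lipogenic factor SREBP1) and *Zfp423* were higher in every OSKA + 4OHT well. *Zfp467* had 4.2 ± 0.873 TPM without 4OHT and 11.9 ± 3.58 TPM with it (log2 fold change 1.37, adjusted p = 0.0601 by limma). *Srebf1* had 81.9, 145.6 and 102.8 TPM without 4OHT and 239.9, 182.9 and 170.9 TPM with it (0.87, adjusted p = 0.105 by limma), and for *Zfp423* the log2 fold change was 0.53 (adjusted p = 0.277 by limma). *Egr2*, an early inducer of *Cebpb*, and *Klf9* were lower in every OSKA + 4OHT well, with log2 fold changes of -1.59 (adjusted p = 0.0592 by limma) and -0.34 (adjusted p = 0.327 by limma). Both directions thus occurred among the favoring factors. Of the restraining factors, *Gata3*, *Klf2* and *Foxo1*, the target of AKT named above, were higher in every OSKA + 4OHT well, with log2 fold changes of 1.57, 0.71 and 0.24 (adjusted p = 0.146, 0.289 and 0.564 by limma). *Wnt10b*, a ligand that keeps progenitors undifferentiated, *Tgfb1*, *Runx2* and *Wwtr1* were lower in every OSKA + 4OHT well, with log2 fold changes of -1.63, -1.32, -0.66 and -0.57 (adjusted p = 0.114, 0.145, 0.313 and 0.0632 by limma). The *Wnt10b* values rested on only about 6.0 to 7.6 reads without 4OHT and 1.38 to 1.86 reads with it. The restraining factors likewise included both directions.

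Genes that store and release triglyceride were called in 0 of 16 tested of 21 listed (4 with an unadjusted p under 0.05), with a median log2 fold change of 0.35. The perilipin of nonadipose cells, *Plin2*, was abundant at 305.8, 330.2 and 201.5 TPM without 4OHT and 387.2, 413.6 and 365.7 TPM with it, against 0 for *Plin1*. Its groups did not overlap, with a log2 fold change of 0.51 and an adjusted p of 0.215 by limma. The other genes of this list with groups that did not overlap, named after their values were seen, lay in both directions. *G0s2*, an inhibitor of triglyceride breakdown, had 0, 0.791 and 0 TPM without 4OHT and 2.50, 1.74 and 4.21 TPM with it (adjusted p = 0.122 by limma). Its values with 4OHT rested on about 1.66 to 3.46 reads. A 0 allows up to 5.744 and 5.285 TPM of *G0s2* in OSKA − 4OHT replicates 1 and 3, above every value with 4OHT. *Dgat2*, an enzyme of triglyceride synthesis, and *Plin3* were also higher, with log2 fold changes of 0.65 and 0.16 (adjusted p = 0.384 and 0.544 by limma). *Dgat1*, another enzyme of triglyceride synthesis, and *Mgll*, which splits monoglycerides, were lower in every OSKA + 4OHT well, with log2 fold changes of -0.92 and -0.69 (adjusted p = 0.108 and 0.141 by limma). *Plin4*, a perilipin of adipocytes, had between 0.419 and 0.897 TPM in the 6 libraries, and *Cidec*, which enlarges the fat droplet and was chosen after its values were seen, was listed at 0 in all.

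Markers of mature white adipocytes other than the members were mostly under the filter. Of the 8 genes 2 were tested and 0 called (1 with an unadjusted p under 0.05), and 3 were listed at 0 in all libraries. These 3, the hormone and carrier genes *Lep*, *Retn* and *Rbp4*, are named after their values were seen, as are *Tshr*, *Trarg1* and *Adrb3*. *Adig* (adipogenin), the most abundant of the list by its mean over the 6 libraries, was listed at 0 in replicates 1 and 2 of both groups. It had 15.9 TPM in OSKA − 4OHT replicate 3 and 27.7 TPM in OSKA + 4OHT replicate 3 (adjusted p = 0.962 by limma). The mean of *Adig* was below that of *Tshr* without 4OHT (5.31 and 9.92 TPM) and above it with 4OHT (9.2 and 3.95 TPM). *Tshr*, the thyrotropin receptor gene, had 12.4, 8.66 and 8.71 TPM without 4OHT and 5.12, 3.65 and 3.06 TPM with it (adjusted p = 0.0612 by limma). Of the genes under the filter, *Trarg1* was higher in every OSKA + 4OHT well (0.256 to 0.598 against 0.790 to 1.65 TPM) and *Adrb3* lower (1.07 to 1.94 against 0 to 0.462 TPM). Of the 9 brown adipocyte genes 4 were tested, with a median log2 fold change of 1.27 and 2 with an unadjusted p under 0.05, and 1 rose, *Dio2*, which encodes a deiodinase that activates thyroid hormone. *Dio2* had 2.34, 2.71 and 1.55 TPM without 4OHT and 11.2, 10.1 and 6.85 TPM with it, with a log2 fold change of 1.87 (SE 0.318, adjusted p = 0.0281 by limma). Its adjusted p-value was from 0.0526 to 0.120 when any 1 of the 6 wells was left out. The other 8 genes of this list are named after their values were seen. *Zic1*, a transcription factor gene, had 1.47, 1.07 and 1.11 TPM without 4OHT and 3.81, 1.83 and 6.05 TPM with it, without overlap (adjusted p = 0.211 by limma). *Cidea*, a lipid droplet protein gene under the filter, was listed at 0 in every OSKA − 4OHT well and had 2.60, 1.01 and 0.627 TPM with 4OHT. These values rested on about 3.21, 1.34 and 0.718 reads, and a 0 allows up to 4.12, 2.09 and 3.79 TPM of *Cidea* in OSKA − 4OHT replicates 1, 2 and 3. The groups overlapped in *Prdm16*, a regulator of brown fat identity (0.924 to 2.04 against 0.389 to 1.54 TPM, log2 fold change -0.44, adjusted p = 0.698 by limma), in *Cox7a1* (0 to 5.65 against 3.64 to 6.55 TPM, log2 fold change 1.29, adjusted p = 0.499 by limma) and in *Ppargc1a*, which did not exceed 0.303 TPM. The *Cox7a1* values, which enter the list median of 1.27, rested on about 0 to 2.04 reads. For this gene 3 reads correspond to between 7.70 and 15.2 TPM, depending on the library. *Ucp1*, the uncoupling protein gene that defines brown fat, *Elovl3* and *Cox8b* were listed at 0 in all libraries.

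The markers of fibroblastic adipocyte progenitors were all expressed, and of the 8 genes 2 rose and 1 fell. *Ly6a*, which encodes the surface protein SCA-1, was the most abundant with 2996 ± 221.4 TPM without 4OHT and 4745 ± 714.1 TPM with it, and *Cd34* had 178.4 ± 45.3 and 434.5 ± 36.7 TPM (n = 3). They rose by 0.65 and 1.31 on the log2 scale (adjusted p = 0.0432 and 0.0184 by limma). *Pdgfrb*, a growth factor receptor of mesenchymal progenitors, fell from 24.5 ± 2.97 to 7.50 ± 1.17 TPM (n = 3; adjusted p = 0.0113). On omitting single wells, *Ly6a* kept its call only without OSKA + 4OHT replicate 3 (0.0384 to 0.196), *Cd34* only without OSKA − 4OHT replicate 1 (0.0289 to 0.0987), and *Pdgfrb* in 3 of the 6 fits (0.0338 to 0.0575), not without OSKA − 4OHT replicate 2 or OSKA + 4OHT replicates 1 or 2. Of the transcript stretches of *Ly6a*, 81.0% are unique, the rest being shared with genes such as *Ly6c1*.

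Other mesenchymal fates gave 1 call each for bone and cartilage and 0 for muscle. Of 8 osteoblast genes 3 were tested, 2 had an unadjusted p under 0.05, and *Bglap2* (osteocalcin) was called, listed at 0 in all OSKA − 4OHT libraries and at 14.0, 8.68 and 15.6 TPM with 4OHT. Its value is uncertain, since only 11.9% of its 50-base stretches are not shared with *Bglap* and *Bglap3*, it rested on about 2.95 to 4.57 reads with 4OHT, and a 0 allows up to 16.1 and 14.9 TPM in OSKA − 4OHT replicates 1 and 3. *Alpl* (alkaline phosphatase), named after its values were seen, had 11.6, 3.18 and 11.9 TPM without 4OHT and 22.9, 108.1 and 20.2 TPM with it, without overlap (log2 fold change 2.19, adjusted p = 0.174 by limma). *Spp1* (osteopontin), the most abundant of the list, had between 673.1 and 922.3 TPM with overlapping groups. Of 8 chondrocyte genes 2 were tested. *Col2a1*, a cartilage collagen and the most abundant, had between 11.2 and 26.5 TPM with overlapping groups, and *Sox9*, a transcription factor of cartilage and of many epithelia, rose from 2.18 ± 0.589 to 9.69 ± 0.591 TPM (n = 3; adjusted p = 0.0159 by limma). On omitting single wells the adjusted p ran from 0.0451 to 0.0820, and the call held only when OSKA − 4OHT replicate 1 or 3 was the one omitted. Of 9 skeletal muscle genes and of 8 hepatocyte genes 1 each was tested and 0 called (0 with an unadjusted p under 0.05). These were *Des*, between 0.528 and 10.4 TPM, and *Apoa2*, between 4.87 and 10.3 TPM, both with overlapping groups.

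**Figure D3:**
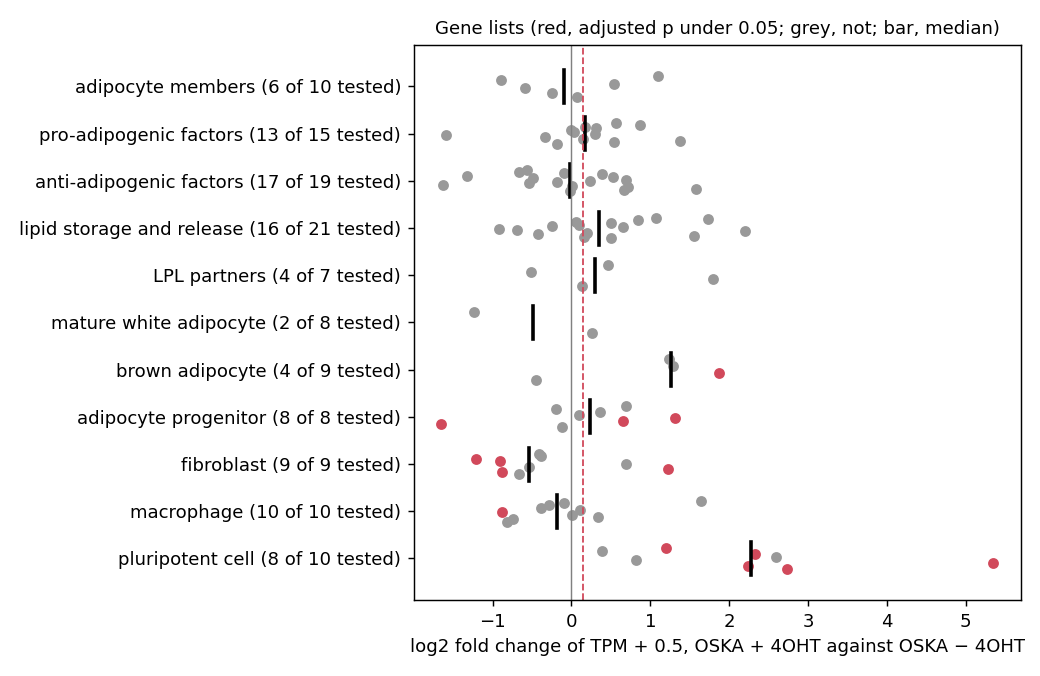
Log2 fold change of TPM + 0.5 between the groups (horizontal axis) for each tested gene of 11 lists, with genes of an adjusted p-value under 0.05 in red, others in grey, the median of each list as a black bar and the median of all tested genes (0.14) as a dashed line. None of the 6 tested adipocyte members is red, whereas 5 of the 8 tested pluripotency markers are.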

How the data were processed

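PolyA RNA from 3 wells of each group was sequenced, and the authors trimmed reads with Trim Galore and quantified them with Salmon against the mouse transcriptome (versions and annotation release are not given in the sources used here). The authors deposited TPM for each gene in each well. The deposited log2 fold change, log2 mean level, score (F statistic) and p-value columns of the authors' own edgeR comparison were not used. As TPM are not counts, limma-trend (limma 3.58.1, R 4.3.3) was fitted on log2(TPM + 0.5), which understates the change of low genes, over the 15382 genes averaging 1 TPM or more. A call is a Benjamini-Hochberg adjusted p-value under 0.05. Gene symbols and GRCm38 positions come from GENCODE M21, matched by identifier for 54097 of 54331 genes. Reads behind a value were approximated from steps in TPM times transcript length, less an assumed fragment of 250 bases, with Python 3.11.15 and pandas 2.3.3. The members and lists were chosen with earlier results of these data known. All 10 members are named, and from other lists the called genes with the largest rise and fall, the most abundant marker, and relatives or partners of a member. Other genes are marked where they appear. Alternatives were other pseudocounts, filters, scalings and variance models, a replicate block, a fold change threshold and leaving out each well.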

Additional observations from a re-analysis of the deposited data

How the results depend on the processing

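The shallow libraries and 3 wells a group limit these results, and a missing call does not show that a gene was unchanged. In every alternative that tested them (15 each), *Lpl* was higher and *Cebpb*, *Cebpd* and *Cd36* were lower with 4OHT, whereas *Pparg* and *Fabp4* took both directions. The cause of the following differences was not tested, except that leaving out a well leaves fewer samples. The count of called members, 0, was 1 with trimmed mean scaling (*Cebpd*) and 0 to 1 with 1 well left out (*Lpl*, without OSKA − 4OHT replicate 1).

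Deviations from the group means were weakly correlated between same-numbered wells of the 2 groups (0.0235, 0.0341 and 0.0837). Differently numbered wells gave -0.062 to 0.0327. Whether the replicate numbers pair the wells was not tested further. With a replicate block, the calls over all genes went from 845 to 47, those of the pluripotency list from 5 to 1, and those of the brown adipocyte, relatives, progenitor, osteoblast, chondrocyte, macrophage and MEF lists to 0.

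With 1 well left out, calls over all genes ranged from 205 to 505, and calls were 0 to 0 for brown adipocyte genes, 0 to 1 for relatives, chondrocyte and macrophage genes, 0 to 2 for progenitor genes, 1 to 4 for MEF genes and 1 to 3 for pluripotency genes. Trimmed mean and quantile scaling gave 1 call each among favoring factors, restraining factors and white adipocyte markers. A minimum of 5 TPM gave 1 among favoring factors, 1 among relatives and 3 among pluripotency genes, and quantile scaling also gave 3 there. Without a filter, brown adipocyte genes and relatives had 0 calls and pluripotency genes 2. Without a variance trend, restraining factors had 1 call, macrophage genes 0 and MEF genes 2. With the fold change threshold macrophage genes had 0 and MEF genes 2. A pseudocount of 0.1 TPM left 1 relative. The share of calls that were higher, 64.1%, was 46.4% with trimmed mean scaling and 49.7% with quantile scaling, as the median of all genes moved from 0.14 to 0.0058 and -0.0047.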
